A study of Mus musculus with 12 samples.

Results

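The 10 genes described here are the ligand genes Ifnb1 and Ifng, the receptor chain genes Ifnar1, Ifnar2, Ifngr1 and Ifngr2, the receptor kinase genes Jak1, Jak2 and Tyk2, and the inhibitor gene Socs1. They were chosen by symbol, without use of their values, from the 55487 genes of the expression table, and all 10 were found there. The study asked how fibroblasts pushed into senescence by DNA damage or by oxidative stress differ from untreated ones. A single line of primary fibroblasts, grown out of mammary fat pad tissue from 1 healthy mouse of strain B6, supplied all 12 libraries, in 4 groups of 3. One group was given doxorubicin, a topoisomerase poison, at 100 nM for 24 hours and was lysed on day 7, and its water-treated vehicle group was lysed on the same day. The hydrogen peroxide group had 3 exposures of 2 hours each to 750 uM, with 48 hours of recovery, and was lysed on day 6 with its own water-treated vehicle group. Vehicle cells were passaged as they grew. Treatment and passaging therefore cannot be told apart within either experiment, and day and experiment cannot be told apart between the vehicle groups. Whether the 3 libraries of a group came from separate cultures is not said in the labels, and the p-values rest on a spread between libraries that may be technical only.

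Interferon beta, encoded by Ifnb1, is the type I interferon that fibroblasts are best known for making when cytosolic nucleic acid sensors are engaged. It binds a receptor of the chains IFNAR1 and IFNAR2, which carry the kinases TYK2 and JAK1. Interferon gamma, encoded by Ifng and made mainly by T cells and natural killer cells, binds a receptor of IFNGR1 and IFNGR2, which carry JAK1 and JAK2. The kinases phosphorylate STAT proteins, which enter the nucleus and raise interferon-stimulated genes. SOCS1 is made in response and blocks JAK activity, closing a negative feedback loop.

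Of the 10 genes, 4 lie on mouse chromosome 16 and 3 of those belong to the cytokine receptor cluster: Ifnar2 (chr16:91372783-91405589), Ifnar1 (chr16:91485238-91507441) and Ifngr2 (chr16:91547072-91565623), all on the plus strand of mm10. The fourth is Socs1 (chr16:10782240-10785536). The others are Ifnb1 (chr4:88522025-88522774), Jak1 (chr4:101152367-101265282), Tyk2 (chr9:21104068-21131243), Ifng (chr10:118441046-118445892), Ifngr1 (chr10:19591949-19610229) and Jak2 (chr19:29251828-29313080). All 10 are annotated as protein-coding. The promoter stretches below are from RefSeq on GRCm38.p6, the same assembly, read 5′ to 3′ on each gene's own strand from position -160 to position -61 before the RefSeq start. They are shown for Ifnb1, for the inhibitor gene, and for the chains of the interferon gamma receptor, whose levels moved in opposite directions with peroxide. Capitals mark a kappaB-like match (GGGA, any 2 bases, TTCC, read on either strand) in Ifnb1 and Ifngr2, and 2 overlapping matches to the core of the interferon-stimulated response element (GAAA, any 2 bases, GAAA) in Socs1. The windows are chr4:88522855-88522954 on the minus strand for Ifnb1, chr16:10785597-10785696 on the minus strand for Socs1, chr10:19591789-19591888 on the plus strand for Ifngr1 and chr16:91546899-91546998 on the plus strand for Ifngr2.
Ifnb1: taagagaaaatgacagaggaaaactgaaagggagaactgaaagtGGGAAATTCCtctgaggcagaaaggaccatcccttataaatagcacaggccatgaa
Socs1: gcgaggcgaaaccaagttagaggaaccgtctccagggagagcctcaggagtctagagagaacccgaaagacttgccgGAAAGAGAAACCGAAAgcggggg
Ifngr1: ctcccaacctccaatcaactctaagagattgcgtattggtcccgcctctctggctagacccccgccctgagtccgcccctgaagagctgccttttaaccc
Ifngr2: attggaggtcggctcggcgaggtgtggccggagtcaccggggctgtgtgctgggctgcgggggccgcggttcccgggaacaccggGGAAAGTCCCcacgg

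Over the 250 bases before the start, all 10 genes matched a RefSeq promoter, and positions below are those of a match's first base. The kappaB-like letters occurred in Ifnb1 at -116 and in Ifngr2 at -75, and in 1.21% of 32817 promoters of the same length. The response element core occurred in Socs1 at -83 and -77, and in 2.97% of those promoters. A match is a run of letters and not a measured site. The Ifnb1 window also holds the letters tataaa at -82.

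Depth, read from the size of 1 read in the deposited values, ran from 17.3 to 37.6 M reads per library (M, 1000000 reads), and summed to 94.3 M in the doxorubicin group, 61.7 M in its vehicle, 75.9 M in the peroxide group and 55.9 M in its vehicle. The limit that a count of 0 allows, 3 reads, was 0.0798 to 0.173 CPM (counts per 1000000 reads) in single libraries. Along the second principal component, which held 23.7% of the variance, doxorubicin replicate 1, day 7 vehicle replicate 3 and peroxide replicate 2 stood apart from the other libraries of their groups. All 9 fibroblast markers, among them Col1a1 and Pdgfra, passed the filter of 1 CPM in at least 3 libraries. Of 12 markers of T and natural killer cells, only Trac passed it. Of 11 leukocyte and myeloid markers 5 passed, as did Krt19 of 7 epithelial, Tek of 6 endothelial and 3 of 6 adipocyte markers, and several moved with treatment as given beside the target genes below.

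Ifnb1 was read in the doxorubicin group alone. It stood at 0.326, 0.160 and 0.227 CPM in doxorubicin replicates 1, 2 and 3, which are 7, 6 and 8 reads, and at 0 in the other 9 libraries. All 3 doxorubicin libraries thus lay above every other library. Their mean was only 0.317 CPM per kb of exon, against 2.48 for Ifnar2, the receptor chain with the lowest mean in that group. Per depth, the 21 doxorubicin reads give 4.58-fold the level of 3 reads over the day 7 vehicle group. They give 5.64-fold the level of 3 reads over the peroxide group. With the counting error of the 21 reads included, the exact 95% lower limits of these ratios were 3.41 and 4.19. An exact two-sided permutation test over the libraries gave p = 0.1 against either group, the smallest value that 3 against 3 libraries can give. A count of 0 allows up to 0.0486 CPM over the day 7 vehicle group, 0.0395 CPM over the peroxide group and 0.0537 CPM over the day 6 vehicle group. In these bulk libraries a few cells with much Ifnb1 RNA and many cells with little cannot be told apart.

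Ifng had 3 reads in all, each in doxorubicin replicate 1, where it stood at 0.140 CPM, and it was at 0 in the other 11 libraries. No fold is given, because 3 reads is the detection limit itself. Of its exon positions, 26.0% are shared with the overlapping unproven gene model Gm49751 on the same strand, so even these reads are uncertain. Interferon gamma transcripts were therefore not detectable above the limit in any group. The summed level of the 12 T and natural killer cell markers was 1.12 to 1.67 CPM with doxorubicin, 0.205 to 0.592 in the day 7 vehicle, 1.03 to 1.62 with peroxide and 1.62 to 2.10 in the day 6 vehicle. Most of it was Trac, which rose with doxorubicin by 0.50 on the log2 scale (limma, adjusted p = 0.0174) and had its highest mean, 1.89 ± 0.289 CPM, in the day 6 vehicle. Of the other 11 markers, Cd4 had 10 reads in the doxorubicin group, Klrb1c 9, Cd3e and Gzmb 7 each, Klrk1 and Nkg7 5 each, Cd3d 4 and Ncr1 1, with 0 or 1 in either vehicle group. In the peroxide group Klrb1c had 8 reads, Cd3e 3, Cd4 and Klrk1 1 each and the rest 0. Cd3g and Prf1 were at 0 in all 12 libraries and Cd8a had 1 read. The part of such cells in the Ifng reads was not tested.

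The other interferon genes were as sparse. Of 19 type I and type III genes, 9 had any read in the 12 libraries, in sum about 55.0 reads. The doxorubicin libraries held 4, 14 and 16.4 of them and the peroxide libraries 8, 5 and 4, while 4 of the 6 vehicle libraries held none. Ifna13 had 3, 2 and 4 reads in the doxorubicin libraries, 5, 3 and 1 in the peroxide libraries and 0 in both vehicle groups. Per depth, that is 1.96-fold and 2.21-fold the level of 3 reads in the matching vehicle group. The counting error of the Ifna13 reads is not included. Ifna4 had 5 and 4 reads in doxorubicin replicates 2 and 3 and 0 elsewhere. Both were singled out after their values were seen, and reads of the near-identical Ifna copies can be split wrongly among them. The peroxide libraries, with 0 reads of Ifnb1, thus had reads of the alpha family. Plasmacytoid dendritic cells are specialist producers of these interferons. Of their markers, Siglech had 4 reads in the doxorubicin group and 0 in the other 3 groups. Ccr9 had 24 reads with doxorubicin, 5 in the day 7 vehicle, 16 with peroxide and 2 in the day 6 vehicle. Ptprc, the leukocyte marker CD45, had 4, 1, 3 and 0 in the same order. Their part in the interferon reads was not tested.

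**Figure D1:**
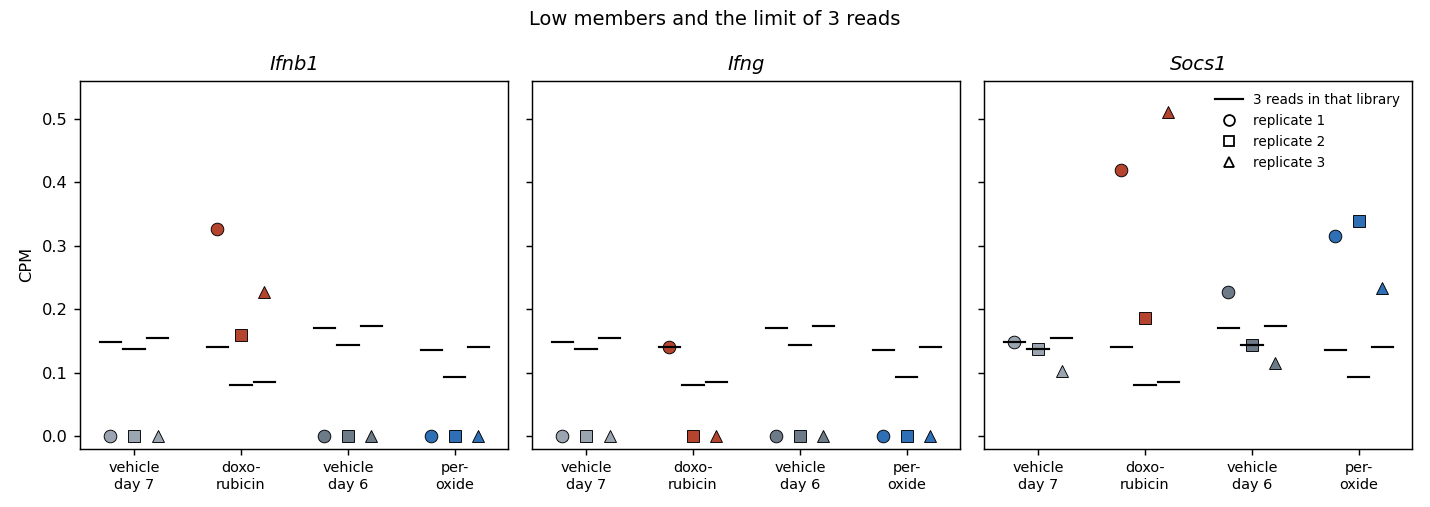
CPM of Ifnb1, Ifng and Socs1 in each of the 12 libraries, by group, with the level of 3 reads in that library drawn as a line. Ifnb1 lies above its line in all 3 doxorubicin libraries (0.160 to 0.326 CPM) and at 0 in the other 9, Ifng reaches its line in 1 library, and Socs1 has reads in all 12.

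The remaining 7 genes passed the filter and entered a limma fit of log2(CPM + 1) over all 13280 genes tested, with an adjusted p under 0.05 as the threshold. With doxorubicin, Ifngr1 rose and Jak2 fell, which is 1 of 7 higher against 22.1% of all genes tested and 1 of 7 lower against 27.8%. With peroxide, Ifnar2, Ifngr2 and Jak1 rose and Ifngr1 fell, which is 3 of 7 higher against 27.3% and 1 of 7 lower against 23.4%. These counts are of the order of the background in both experiments. The called changes ran from -0.83 to 0.50 on the log2(CPM + 1) scale, which understates the change of low genes.

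Ifnar1, the chain that binds TYK2, did not pass the test in either experiment. It stood at 15.4, 38.9 and 20.2 CPM with doxorubicin and at 18.1, 16.7 and 17.03 CPM in its vehicle. The groups overlapped: doxorubicin replicate 2 lay above every other library and replicate 1 below all 3 vehicle libraries. The fitted difference was 0.39 ± 0.27 (SE) on the log2 scale (limma, adjusted p = 0.242), with a 95% confidence interval of -0.20 to 0.99. Without doxorubicin replicate 1, which stood apart, it was 0.67 and passed (limma, adjusted p = 0.0434), and without replicate 2 it was 0.03 (adjusted p = 0.91). Peroxide left it at 17.3, 19.6 and 12.4 CPM against 19.7, 16.7 and 15.8 CPM in the day 6 vehicle, overlapping ranges with a fitted difference of -0.10 ± 0.27 (limma, adjusted p = 0.787).

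Ifnar2, the chain that binds JAK1, rose with peroxide. It stood at 7.76, 8.06 and 7.90 CPM there and at 5.40, 5.24 and 6.01 CPM in the day 6 vehicle. Every peroxide library lay above every vehicle library, by 0.44 ± 0.12 on the log2 scale (limma, adjusted p = 0.00905). With doxorubicin it stood at 8.66, 8.27 and 7.83 CPM, inside the range of its vehicle at 8.93, 6.43 and 6.87 CPM (difference 0.15 ± 0.12, limma, adjusted p = 0.319). Of its exon positions, 9.46% are shared with the overlapping gene model Gm21970 on the same strand, whose reads cannot be told apart from its own there.

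Ifngr1, the chain of the interferon gamma receptor that binds the ligand and JAK1, moved in opposite directions in the 2 experiments. With doxorubicin it stood at 48.9, 70.4 and 69.9 CPM against 45.9, 46.7 and 38.7 CPM in the day 7 vehicle, so that the groups did not overlap but replicate 1 lay just above the vehicle. It rose by 0.50 ± 0.18 on the log2 scale (limma, adjusted p = 0.0354, 95% confidence interval 0.11 to 0.89). That call was lost without any one of doxorubicin replicate 2 (adjusted p = 0.121) or 3 (0.119), or day 7 vehicle replicate 1 (0.0584), 2 (0.0534) or 3 (0.118), and with no filter on low values (0.0734). Over all alternatives run, the limma adjusted p ranged from 0.000297 to 0.121.

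With peroxide, Ifngr1 stood at 39.2, 30.2 and 47.1 CPM against 77.5, 68.8 and 60.9 CPM in the day 6 vehicle. All 3 peroxide libraries were below all 3 vehicle libraries, and it fell by 0.83 ± 0.18 on the log2 scale (limma, adjusted p = 0.00239). The difference between the doxorubicin and peroxide effects was 1.33 ± 0.25 (limma, adjusted p = 0.0032), one of 3 of 7 members called for that difference against 33.6% of all genes tested. The vehicle groups differed as well: Ifngr1 averaged 69.0 ± 8.32 CPM (SD, n = 3) on day 6 and 43.8 ± 4.41 CPM on day 7, a difference of -0.64 ± 0.18 for day 7 against day 6 (limma, adjusted p = 0.0197). The peroxide mean, 38.8 ± 8.45 CPM, was thus nearer to the day 7 vehicle than to its own, and the doxorubicin mean, 63.1 ± 12.3 CPM, nearer to the day 6 vehicle.

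Ifngr2, the chain that binds JAK2, was higher than in the vehicle in both experiments and passed the test in one. With peroxide it stood at 55.3, 50.9 and 63.0 CPM against 46.4, 41.9 and 43.8 CPM, with no overlap, and rose by 0.35 ± 0.08 on the log2 scale (limma, adjusted p = 0.00521). With doxorubicin it stood at 62.0, 58.5 and 56.04 CPM against 50.9, 51.4 and 49.1 CPM, again with no overlap, a difference of 0.22 ± 0.08 that missed the threshold (limma, adjusted p = 0.0511). It passed when either peroxide replicate 2 (adjusted p = 0.0261) or 3 (0.0245), which only enter the shared spread, was left out, and with TMM scaling (0.01), while upper quartile scaling gave 0.10 (adjusted p = 0.451). The 2 effects on Ifngr2 differed by -0.13 ± 0.12 (limma, adjusted p = 0.413).

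**Figure D2:**
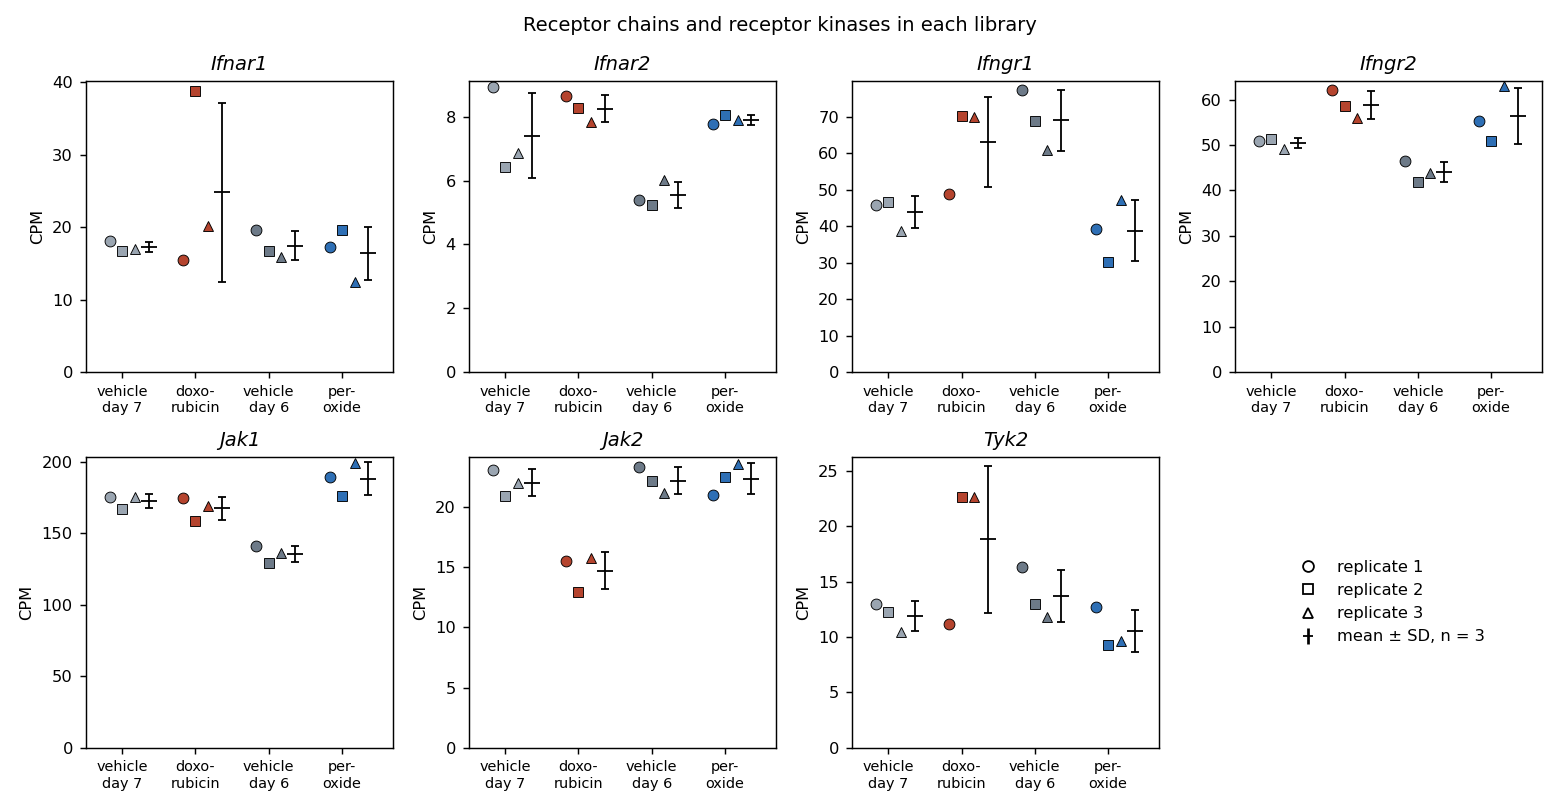
CPM of the 7 members that passed the filter, in each library by group (symbols) with the mean and SD of each group's 3 libraries (bars); each panel has its own axis from 0. Jak2 in doxorubicin (12.9 to 15.7 CPM) lies below all 9 other libraries, and Ifnar1 and Tyk2 vary most within the doxorubicin group.

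The 2 chains of the interferon gamma receptor were also set against each other within each library, as a ratio of CPM per kb of exon, in which depth cancels. Ifngr1 over Ifngr2 was 1.04, 1.59 and 1.65 with doxorubicin and 1.195, 1.202 and 1.04 in the day 7 vehicle. It was 0.937, 0.785 and 0.989 with peroxide and 2.21, 2.17 and 1.84 in the day 6 vehicle. Peroxide libraries were therefore the only ones with less Ifngr1 than Ifngr2, and the day 6 vehicle had about 2.07 ± 0.205 (SD, n = 3) times as much. Doxorubicin replicate 1 lay at the low end of its vehicle's values. For the type I receptor, Ifnar1 over Ifnar2 was 0.997, 2.63 and 1.44 with doxorubicin against 1.13, 1.46 and 1.39, and 1.25, 1.36 and 0.879 with peroxide against 2.04, 1.79 and 1.48. The 3 peroxide ratios lay below the day 6 vehicle, while those with doxorubicin spanned the range of theirs.

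**Figure D3:**
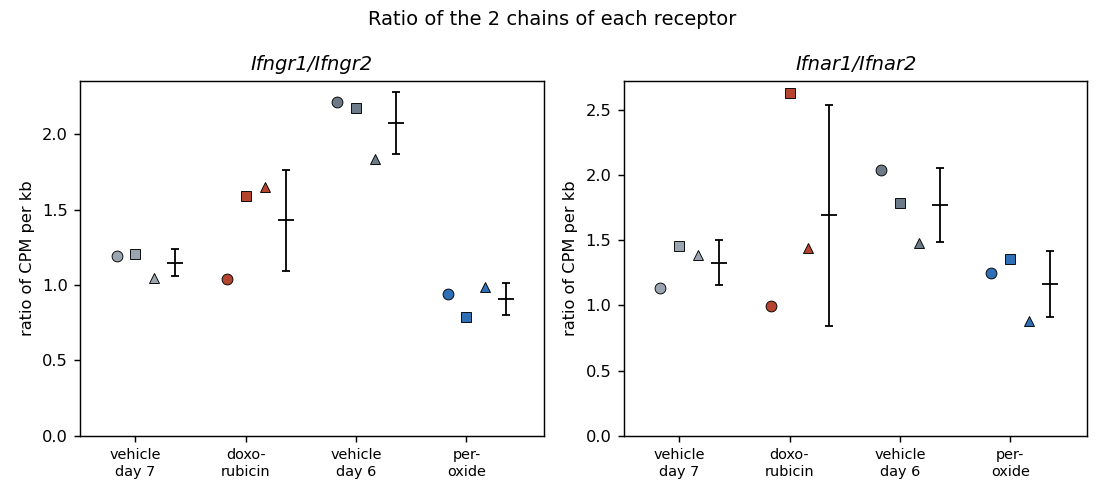
Ratio of the receptor chains, each as CPM per kb of exon, in each library (circles, squares and triangles are replicates 1, 2 and 3) with the mean and SD of each group's 3 libraries. Ifngr1/Ifngr2 lies at 0.785 to 0.989 with peroxide and at 1.84 to 2.21 in the day 6 vehicle, with no overlap.

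Jak1, the kinase that serves both receptors, rose with peroxide. It stood at 189, 176 and 199 CPM against 141, 129 and 136 CPM in the day 6 vehicle, with no overlap, and rose by 0.47 ± 0.07 on the log2 scale (limma, adjusted p = 0.000133). With doxorubicin it stood at 175, 159 and 169 CPM, overlapping its vehicle at 175, 167 and 175 CPM. The difference was -0.04 ± 0.07 (limma, adjusted p = 0.635), with an interval of -0.19 to 0.11, and TMM and median-of-ratios scaling turned its sign. The effects of the 2 treatments on Jak1 differed by -0.51 ± 0.09 (limma, adjusted p = 0.0028). Here too the vehicles differed, by 0.35 ± 0.07 for day 7 against day 6 (limma, adjusted p = 0.00282). Thus 3 of the 4 groups had means of 168 to 188 CPM, and the day 6 vehicle, at 135 ± 5.87 CPM (SD, n = 3), stood below them.

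Jak2, which the interferon gamma receptor shares with the receptors for growth hormone and erythropoietin, fell with doxorubicin. Its values were 15.5, 12.9 and 15.7 CPM with doxorubicin and 23.1, 20.9 and 22.1 CPM in the day 7 vehicle. The 3 doxorubicin libraries were the lowest of all 12, and the fall was 0.56 on the log2 scale with an SE of 0.09 (limma, adjusted p = 0.00058). It passed under all 25 alternatives, with adjusted p from 6.84e-05 to 0.00542. The peroxide libraries, at 21.0, 22.5 and 23.6 CPM, overlapped the day 6 vehicle at 23.4, 22.2 and 21.2 CPM, a difference of 0.01 ± 0.09 with an interval of -0.20 to 0.22 (limma, adjusted p = 0.949), whose sign turned with TMM and median-of-ratios scaling. The 2 treatment effects on Jak2 differed by -0.56 ± 0.13 (limma, adjusted p = 0.00989). Between the vehicle groups Jak2 differed by only -0.01 (limma, adjusted p = 0.944), also of unstable sign.

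Tyk2, the kinase of the IFNAR1 chain, did not pass the test in either experiment. It stood at 11.2, 22.7 and 22.6 CPM with doxorubicin and at 13.03, 12.2 and 10.4 CPM in the day 7 vehicle. Replicates 2 and 3 lay above the vehicle while replicate 1 lay inside its range, so the groups overlapped, and the difference was 0.56 ± 0.24 on the log2 scale (limma, adjusted p = 0.0711). Without doxorubicin replicate 1 it was 0.88 (adjusted p = 0.00143), and without all 3 libraries that stood apart it was 0.80 (adjusted p = 0.00233). It also passed with TMM (0.0440) and median-of-ratios (0.0410) scaling and with array weights (0.000742). With peroxide it stood at 12.7, 9.29 and 9.63 CPM against 16.3, 12.98 and 11.8 CPM, overlapping, with a difference of -0.35 ± 0.24 (limma, adjusted p = 0.248). The treatment effects differed by 0.91 ± 0.34 (limma, adjusted p = 0.0582), and by 1.23 without doxorubicin replicate 1 (adjusted p = 0.00254). An antisense gene, 1700084C06Rik, covers 8.07% of its exon positions, and whether counting used strand is not given in the sources used here.

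**Figure D4:**
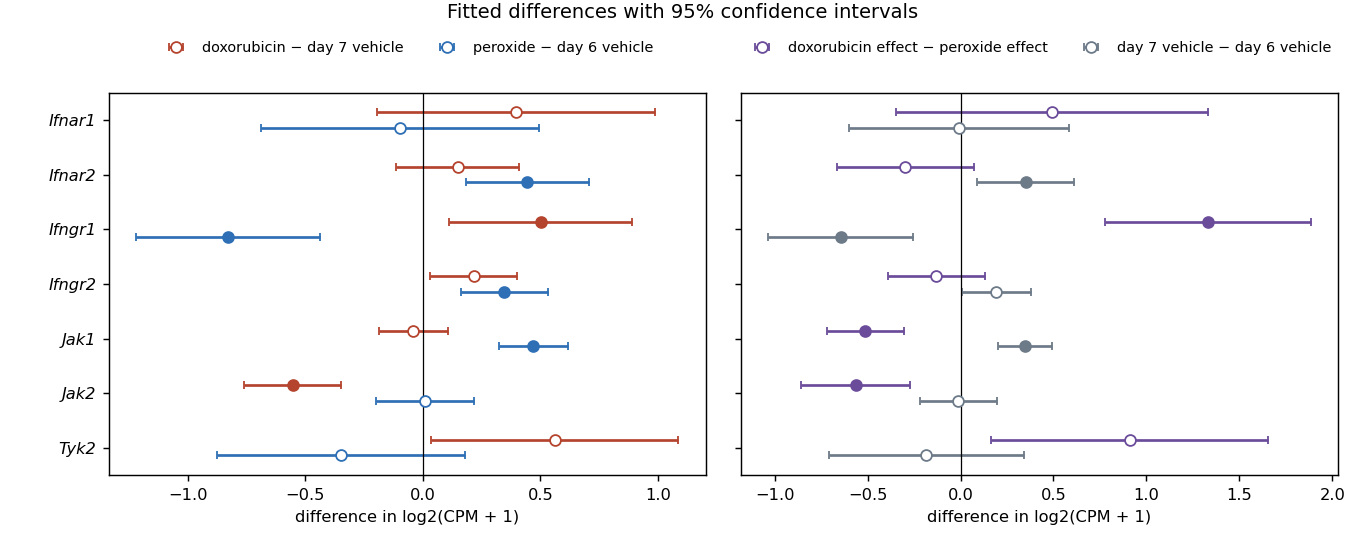
Fitted differences in log2(CPM + 1) with 95% confidence intervals for the 7 members tested: treatment against vehicle in the left panel, the difference between the 2 effects and that between the vehicle groups in the right. Filled points have an adjusted p under 0.05; for Ifngr1 the doxorubicin (0.50) and peroxide (-0.83) effects are both filled and lie on opposite sides of 0.

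Socs1, the feedback inhibitor, was too low for the filter, with 0.103 to 0.510 CPM over the 12 libraries. The doxorubicin libraries held 9, 7 and 18 reads (0.419, 0.186 and 0.510 CPM) and the day 7 vehicle 3, 3 and 2 (0.148, 0.137 and 0.103 CPM). The peroxide libraries held 7, 11 and 5 reads (0.316, 0.340 and 0.234 CPM) and the day 6 vehicle 4, 3 and 2 (0.227, 0.143 and 0.116 CPM). In each experiment the treated libraries all lay above those of the vehicle, so neither pair of groups overlapped, and each exact two-sided permutation test gave p = 0.1, the smallest possible. Per depth, the doxorubicin group had 2.78 times the reads of its vehicle, with a 95% exact counting interval of 1.26 to 6.95. The peroxide group had 1.88 times, with an interval of 0.838 to 4.62 that includes no change. These intervals cover counting error only. With no filter, limma gave Socs1 an adjusted p of 0.0327 for doxorubicin and of 0.217 for peroxide.

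Between the day 7 and day 6 vehicle groups, 3 of 7 members passed the test, against 28.0% of all genes tested. They were Ifngr1 and Jak1, described above, and Ifnar2, higher on day 7 by 0.35 ± 0.12 on the log2 scale (limma, adjusted p = 0.0475). The Ifnar2 call was lost without any one of 10 of the 12 libraries, at adjusted p from 0.0512 to 0.170, and held without day 7 vehicle replicate 2 or peroxide replicate 2. The Ifngr1 call was lost without day 7 vehicle replicate 3 (adjusted p = 0.0756) or day 6 vehicle replicate 1 (0.0794) or 2 (0.0573). In size, the vehicle differences of these 3 genes ran from 0.35 to 0.64 on the log2 scale and their peroxide effects from 0.44 to 0.83, and each treatment effect is stated against its own vehicle only.

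Per kb of exon, Jak1 stood highest in 3 groups, with 23.2 CPM per kb in doxorubicin, 23.8 in the day 7 vehicle and 26.0 in peroxide. In the day 6 vehicle Ifngr1 stood above it, at 24.3 against 18.7 CPM per kb, without overlap. The interferon gamma receptor chains came next, with Ifngr1 at 13.6 to 24.3 and Ifngr2 at 11.7 to 15.6 CPM per kb over the group means. They could not be ordered in the day 7 vehicle or in peroxide, where their ranges overlapped, and Ifngr1 overlapped Jak1 in doxorubicin. The type I receptor chains were several times lower, with Ifnar1 at 2.76 to 4.18 and Ifnar2 at 1.67 to 2.48 CPM per kb. Jak2, at 4.38 to 4.45 CPM per kb in 3 groups, stood next below Jak1, Ifngr1 and Ifngr2 there. In doxorubicin it was at 2.93, and the ranges of Jak2, Ifnar1, Tyk2 and Ifnar2 overlapped, so these could not be ordered. Ifnb1 in doxorubicin, at 0.317 CPM per kb, lay above Socs1 at 0.128. The ratio of Jak1 to Jak2 per kb was 7.96 ± 0.549 (SD, n = 3) with doxorubicin, 5.44 ± 0.157 in its vehicle, 5.86 ± 0.415 with peroxide and 4.24 ± 0.215 in the day 6 vehicle.

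**Figure D5:**
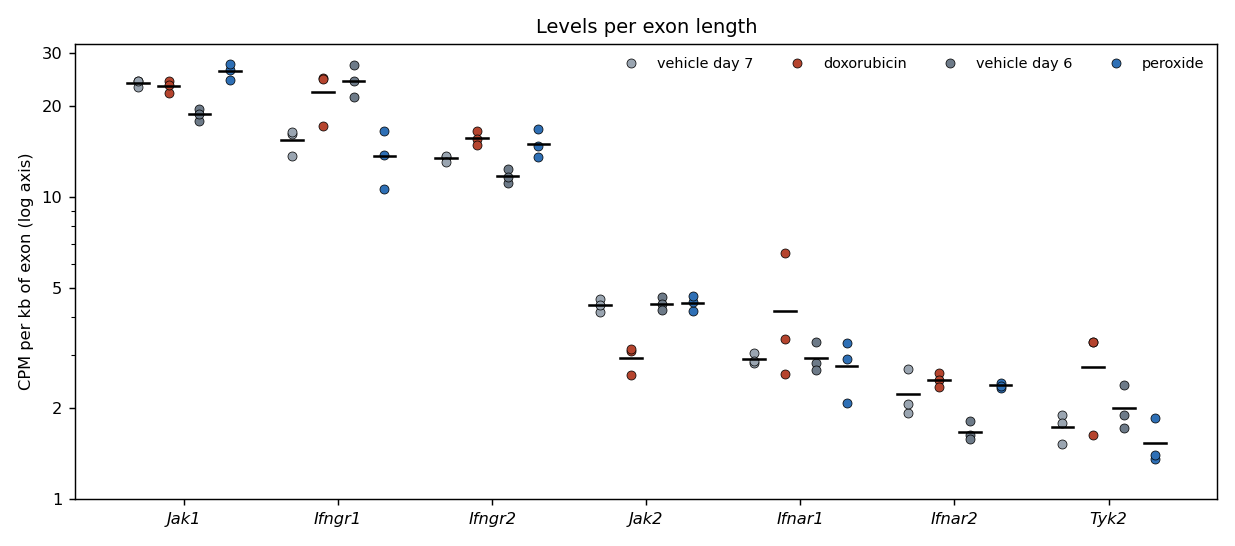
Level of each member that passed the filter in CPM per kb of exon, on a log axis, for the 12 libraries by group (points) with group means (lines). Jak1, Ifngr1 and Ifngr2 lie at 10.6 CPM per kb or above in every library, and the other 4 genes at 6.54 or below.

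Typical target genes downstream of the receptors moved further than the members did. Of 10 typical type I targets, 10 rose in each experiment, against 22.1% and 27.3% of all genes tested. The median differences were 4.77 and 3.83 against -0.03 and -0.01 over all genes tested. Without the 3 libraries that stood apart, Mx1 fell under the filter and the 9 still tested rose in each. Mx1 passed the filter through the doxorubicin libraries alone, at up to 0.857 CPM with peroxide. Mx2, Rsad2 and the interferon gamma target Cxcl9 reached 1 CPM in treated libraries only. These genes could hardly be called lower. Isg15, a ubiquitin-like modifier, rose by 6.41 with doxorubicin (limma, adjusted p = 3.66e-09) and by 5.61 with peroxide (adjusted p = 1.52e-08). Ifit1, which binds foreign RNA, rose by 6.13 and 4.93 in the same order. Of 11 targets typical of interferon gamma, 5 were tested and 4 rose in each experiment, against 22.1% and 27.3% of all genes. The untested Ciita, H2-Aa, H2-Ab1, H2-Eb1, Ido1 and Nos2 averaged under 1 CPM in every group. Nos2 had 19 reads with doxorubicin against 38 in its vehicle, and 20 with peroxide against 0. H2-Eb1 averaged 0.646 CPM with doxorubicin against 0.234, and 0.367 with peroxide against 0.290. Irf1 rose with doxorubicin (1.04), with -0.32 for peroxide (limma, adjusted p = 0.478). Gbp2, a guanylate-binding protein that type I interferon also raises, rose by 3.48 and 3.26. Cxcl9, a T cell chemokine, rose by 3.02 and 1.45. Cd74, the class II invariant chain, rose with peroxide (1.07) and had -0.41 with doxorubicin (limma, adjusted p = 0.102), effects that differed by -1.48 (adjusted p = 0.00298). Its vehicle groups differed by more than either, 2.08 for day 7 against day 6 (limma, adjusted p = 3.09e-05), and its peroxide mean, 2.69 CPM, lay below the day 7 vehicle at 6.35 CPM. Ifng itself stood at or below its limit in every library. Of 9 fibroblast markers, 7 rose in each experiment, against 22.1% and 27.3% of all genes. With doxorubicin 1 fell and with peroxide 0, against 27.8% and 23.4%, and under 3 other scalings 0 fell with doxorubicin. Dcn rose by 2.13 and 4.87, and its vehicle groups differed by 3.18 for day 7 against day 6 (limma, adjusted p = 1.27e-07). Markers of other cell types moved beside the target genes. Of 5 leukocyte and myeloid markers tested, 4 rose and 1 fell with doxorubicin, and 3 rose and 1 fell with peroxide. The shares of all genes were 22.1% higher and 27.8% lower, and 27.3% and 23.4%. The myeloid genes Lyz2 (2.01 and 2.35) and Cd68 (0.77 and 0.68) rose in both experiments, while Ptprc had 8 reads in all, and the summed level of the 11 markers, mostly Bst2, itself among the type I targets, was 370 to 395 CPM with doxorubicin, 34.7 to 41.4 in its vehicle, 173 to 195 with peroxide and 31.2 to 35.4 in its vehicle. Csf1r rose with doxorubicin (0.58) and fell with peroxide (-0.57). Its vehicle groups differed by -0.66 for day 7 against day 6 (limma, adjusted p = 0.00429). Cd14 fell with doxorubicin (-0.60), with -0.31 for peroxide (limma, adjusted p = 0.143). Itgam, under the filter, had 15.3 reads with doxorubicin, 27 with peroxide and 0 in both vehicle groups. The endothelial receptor Tek rose (1.35 and 1.65), with Cdh5 at 1 read in all, and the keratin Krt19 fell (-1.08 and -2.31), with Epcam at 7 reads in all. Under the filter, Pecam1 averaged 0.845 CPM with doxorubicin against 0.130, and 0.353 with peroxide against 0.147. Vwf had 0.554 against 0.166 and 0.583 against 0.128, and Kdr 0.462 against 0.455 and 0.237 against 0.410. Epithelial Cdh1 went opposite to Krt19, with 0.594 against 0.333 and 0.413 against 0.0476 CPM. Krt5, Krt8, Krt14 and Krt18 had at most 11 reads in any group. Of 3 adipocyte markers tested, Adipoq rose in both (0.92 and 1.06), Fabp4 fell in both (-1.48 and -0.86), and Lpl fell with doxorubicin and rose with peroxide (-0.69 and 1.07). The Lpl vehicle groups differed by 1.19 for day 7 against day 6 (limma, adjusted p = 2.78e-06). The Lpl mean with peroxide, 2097 CPM, lay below the day 7 vehicle at 2271 CPM. The part of these cell types in the target genes was not tested.

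Of the 10 sensors, adaptors and kinases upstream of interferon genes, 3 rose and 2 fell with doxorubicin, and 6 rose and 2 fell with peroxide, against 22.1% and 27.8%, and 27.3% and 23.4%, of all genes tested. Without the 3 libraries that stood apart, 5 rose with doxorubicin. The RNA sensor genes Ifih1 (2.98 and 1.62) and Ddx58 (2.33 and 2.80) rose in both, as did Irf7 (4.88 and 4.39), which is also counted among the type I targets. Ikbke, a kinase that activates IRF3, rose with peroxide (0.89, limma, adjusted p = 0.000246), with 0.33 for doxorubicin (adjusted p = 0.0627). Its vehicle groups differed by 0.65 for day 7 against day 6 (limma, adjusted p = 0.00454). Other inhibitors of the pathway were mixed, with 4 of 10 rising and 2 falling in each experiment, against the same shares of all genes. Their rises were 5 and 3 without the 3 libraries that stood apart. Usp18, which binds IFNAR2 and shuts off its signal, rose from 5.04 ± 1.07 to 495 ± 100 CPM with doxorubicin, by 6.36 on the log2 scale (limma, adjusted p = 5.24e-09). With peroxide it rose by 5.54 (limma, adjusted p = 2.14e-08). Ptpn2, a phosphatase of JAK1, fell by 0.75 and 0.58, while Ptpn1, a phosphatase of JAK2 and TYK2, rose by 0.99 with doxorubicin and fell by 0.51 with peroxide. The Ptpn1 vehicle groups differed by -0.66 for day 7 against day 6 (limma, adjusted p = 0.0223).

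Among the other 7 SOCS family genes, unlike Socs1 all high enough to test, 4 rose with doxorubicin and 1 with peroxide, and 0 fell. The shares of all genes tested were 22.1% higher and 27.8% lower with doxorubicin, and 27.3% and 23.4% with peroxide. Without the 3 libraries that stood apart, 1 of these SOCS genes also fell with peroxide. Over the alternatives with the same filter, 3 to 4 rose and 0 to 1 fell with doxorubicin. With peroxide 1 to 2 rose and 0 to 2 fell. Cish, a target of STAT5, rose in both (0.89 and 1.003), and Socs3, the inhibitor of the interleukin 6 receptor, rose with doxorubicin (0.65, limma, adjusted p = 0.00615), with 0.20 for peroxide (adjusted p = 0.32). Of 6 further STAT and JAK genes, 4 were tested: Stat3 rose (0.95 and 1.41) and Stat6 fell (-0.56 and -0.30) in both. The Stat6 call with peroxide was lost under a scaling alternative. Of 30 other receptor chains that use the same kinases, 16 were tested, 11 rose with doxorubicin and 6 with peroxide, and 0 fell in either, against the same shares of all genes as above. Among them, Il2rb, Prlr, Crlf2 and Csf2ra reached 1 CPM in treated libraries only and could hardly be called lower. These counts are therefore partly set by the filter. The doxorubicin count ran from 8 to 12 and the peroxide count from 5 to 7 over the alternatives with the same filter. Osmr, the oncostatin M receptor chain, rose by 1.96 and 1.58, and Il4ra, the interleukin 4 receptor chain, by 2.31 with doxorubicin (limma, adjusted p = 0.00209) with -0.58 for peroxide (adjusted p = 0.335). Il10rb, the type III interferon receptor chain whose gene lies between Ifnar2 and Ifnar1, did not pass in either (0.04 and 0.16, the first of unstable sign between scalings), and its partner Ifnlr1 was at 0 in all 12 libraries. These lists were drawn up with results of these data known, and their counts carry no test of the list.

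Over the 12 libraries, the genes most like each member, by Pearson's r of log2(CPM + 1), were Atp5d (0.964) and Rnf19a (0.963) for Ifnar1, and Gpam (0.934) and Creg1 (0.925) for Ifnar2. They were Degs1 (0.987) and Rrp8 (0.981) for Ifngr1, and Pdp1 (0.96) and Ggps1 (0.959) for Ifngr2. For the kinases they were Lamp2 (0.972) and Osbpl9 (0.969) for Jak1, Ublcp1 and Ryk (both 0.962) for Jak2, and Comtd1 (0.979) and Nfkbib (0.974) for Tyk2. No member was among the 2 most like genes of another. Between members, r was highest for Jak1 with Ifngr2 and for Ifnar2 with Ifngr2 (both 0.795), and Jak1 with Ifngr1 had -0.676. These are descriptions over libraries that share 4 groups and their depths.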

How the data were processed

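RNA was extracted with an RNeasy kit and sequenced on an Illumina NovaSeq, per the labels' protocols. The authors deposited CPM per gene and library, and bcl2fastq, DRAGEN and mm10 are named per the submitters' processing notes. For the counting program, annotation and strand setting, nothing is given in the sources used here. Genes at 0 in every library were kept in the deposited table. Depth was taken from the commonest value above 0 in each library as the worth of 1 read. Of the 120 member values, 118 were whole reads (tolerance 0.005), but only 74.7% to 79.9% of low values overall (tolerance 0.001), so the main test was not on counts. The exact intervals for Ifnb1 and Socs1 used their reads, and 1 alternative limma fit used estimated reads. Exon lengths and positions are from GENCODE M21.

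The test was limma 3.58.1 (R 4.3.3) with a mean-variance trend on log2(CPM + 1), in a single model of the 4 groups with 8 residual degrees of freedom, over genes that reached 1 CPM in 3 or more of the 12 libraries, two-sided, with Benjamini-Hochberg adjustment over all 13280 genes. The script was tested on simulated data. The 3 members under the filter were given as reads, with the limit of 3 reads and exact permutation tests. All 10 members are named, with at most 4 called genes of each of 10 pathway lists by size of change, and the 2 genes most correlated with each member. Some further list genes are named where they went another way or bear on the filter. One of the lists is not reported here. Members and lists were chosen with earlier results of these data known. Alternatives were other pseudocounts, filters, scalings, weights and models, and leaving out libraries.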

Additional observations from a re-analysis of the deposited data

Results flagged for a closer look

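For 3 genes the doxorubicin effect and the peroxide effect, each against its own vehicle, differed in a test of the difference itself. The difference was 1.33 on the log2 scale for Ifngr1, -0.51 for Jak1 and -0.56 for Jak2 (limma, adjusted p = 0.0032, 0.0028 and 0.00989). Ifngr1 was higher than the vehicle in 3 of 3 doxorubicin libraries and lower in 3 of 3 peroxide libraries. Ifngr1 and Jak1 also differed between the vehicle groups, by -0.64 and 0.35 for day 7 against day 6, while Jak2 differed by -0.01. Whether the vehicle differences contribute to the first 2 was not tested.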

How the results depend on the processing

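Jak2 with doxorubicin and the 4 peroxide calls passed under all 25 alternatives, and the 3 calls for the difference between effects under all 24. The doxorubicin count of members called, 2, was 4 with TMM scaling, with median-of-ratios scaling and with array weights, and 1 at an adjusted p under 0.01. It was also 4 without the 3 libraries that stood apart, an alternative chosen after seeing the data, and 1 to 4 with a single library left out. The vehicle count, 3, was 1 at an adjusted p under 0.01, and 1 to 3 with a library left out. The cause of these moves was not tested.

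Same-numbered libraries did not deviate together (r from -0.311 to 0.194 with doxorubicin, -0.237 to 0.143 with peroxide). Differently numbered ones had r from -0.291 to 0.399 and from -0.242 to 0.246. With 3 libraries per group, such values cannot decide whether the numbers pair the samples. With the replicate number as a block, the doxorubicin count was 1, Ifngr1 being lost (adjusted p = 0.0653), and the vehicle count 1, Ifngr1 (0.0504) and Ifnar2 (0.0834) being lost, the peroxide count 4 and the difference count 3. 

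Signs turned only in differences that did not pass. Jak1 with doxorubicin was 0.036 with TMM and 0.018 with median-of-ratios scaling. Ifnar1 with peroxide was 0.081 without peroxide replicate 3, in a range of -0.23 to 0.081 with a library left out. Jak2 with peroxide was -0.012 with TMM, -0.0050 with median-of-ratios scaling, -0.029 with array weights, and -0.029 and -0.025 without peroxide replicate 3 and day 6 vehicle replicate 3, in a range of -0.029 to 0.051. Between vehicles, Ifnar1 was 0.058 with upper quartile scaling, 0.019 with array weights and 0.0033 without the libraries that stood apart, and 0.015, 0.0033 and 0.080 without day 7 vehicle replicate 2 or 3 or day 6 vehicle replicate 1, in a range of -0.068 to 0.080. Jak2 between vehicles was 0.053 with upper quartile scaling, and 0.024 without day 7 vehicle replicate 2 or day 6 vehicle replicate 1, in a range of -0.046 to 0.053. In all, of 686 member values under alternatives, 620 kept direction and side of the threshold, 28 lost a call, 21 gained one and 17 changed sign.

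Upper quartile scaling moved the median of all genes from -0.03 to -0.13 with doxorubicin and from -0.07 to -0.18 for the difference. TMM scaling split the difference calls into 2193 higher and 1891 lower, against 1796 and 2665. Array weights raised the vehicle calls from 3719 to 5666 genes. With 3 reads as the limit, Ifnb1 and Ifng below about 0.05 CPM over a group could not be seen.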
